A study of Mus musculus with 6 samples.

Results

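The 10 genes described here encode proteins that mark exosomes or act in their release: Gpa33, Cd63, Cd9, Cd81, Tsg101, Pdcd6ip, Rab27a, Rab27b, Sdcbp and Flot1. They were picked by symbol, and each was represented by the probe set with the highest mean over the 6 arrays. All 10 were found by symbol in the platform annotation, each with 1 probe set, among 22206 probe sets tested and 19505 named genes. The products of 2 of them, CD63 and the A33 antigen, define the CD63+A33+ vesicles of the study. The values below are the recipients' own transcripts, not the content of the vesicles that were given.

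The arrays compared C57BL/6J mice that received L-Exo with C57BL/6J mice that received H-Exo, with 3 arrays per group. L-Exo are exosomes isolated from the feces of lean mice on a regular chow diet, and H-Exo those from obese mice on a high-fat diet (HFD), with feces pooled from 10 mice for isolation. Both groups of recipients ate HFD and were gavaged with 2000000000 exosomes a day for 14 days, so the arrays hold no group without exosomes and none on chow. The methods give male mice bought at 8 to 12 weeks of age. Whether each array of a group stands for another mouse is not stated, so the tests speak only of variation from array to array, which may be technical.

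Exosomes form when the membrane of a late endosome buds inward and the resulting multivesicular body fuses with the plasma membrane. The ESCRT complexes, in which TSG101 works and to which ALIX (the product of Pdcd6ip) binds, pinch the vesicles off, and the tetraspanins CD9, CD63 and CD81 sort cargo into them. RAB27A and RAB27B then dock the multivesicular body at the cell surface. In the intestine, epithelial cells shed such vesicles from both their faces, and the A33 antigen, encoded by Gpa33, marks vesicles of epithelial origin.

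A level was called above background where it was higher than 95% of that array's negative control probes, a limit that lay between 7.97 and 8.41 on the log2 scale. The labels call the tissue liver. All 6 arrays exceeded this level for only 2 of 19 measured liver markers, and no array did for 14, whereas 18 of 20 markers of the intestinal epithelium exceeded it throughout. The data thus went against the label, and the tissue is not named further here. The share of all probe sets above the level ran from 22.3% to 26.7% per array. L-Exo 1 and H-Exo 1 stood apart from the other arrays, with a mean correlation to the others of 0.951 and 0.963 across probe sets, against 0.971 to 0.975. The differences of the genes described below are therefore also given without L-Exo 1, except for genes below the limit on all 6 arrays that are only named. In bulk tissue, fewer cells of a type and less RNA per cell cannot be told apart.

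Transcripts of 9 of the 10 genes lay above the negative control level on all 6 arrays. No gene among the 10 passed the test of the difference between the groups. Only Flot1 stayed below the negative control level, and it did so on all 6 arrays. Over all 22206 probe sets, 18.6% lay above this level on all 6 arrays. The level matters for this count. At the 99th percentile of the negative controls, 4 of the 10 genes (Gpa33, Cd63, Cd81 and Sdcbp) were above it on all 6 arrays, while Rab27a and Rab27b were above it on none. None of the 10 passed limma's adjusted p under 0.05, where the share over all probe sets was 0%. None had an unadjusted p under 0.05 either, against 2.32% of probe sets higher in H-Exo and 1.74% lower. For none of the 10 did the 3 arrays of one group lie wholly above those of the other, which held for 4.9% of probe sets in one direction (H-Exo higher) and 4.71% in the other. Of the 10 differences, 6 were positive and 4 negative, with a median of 0.03 against -0.01 over all probe sets. At 3 arrays against 3, a two-sided exact permutation test cannot give a p below 0.1.

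**Figure D1:**
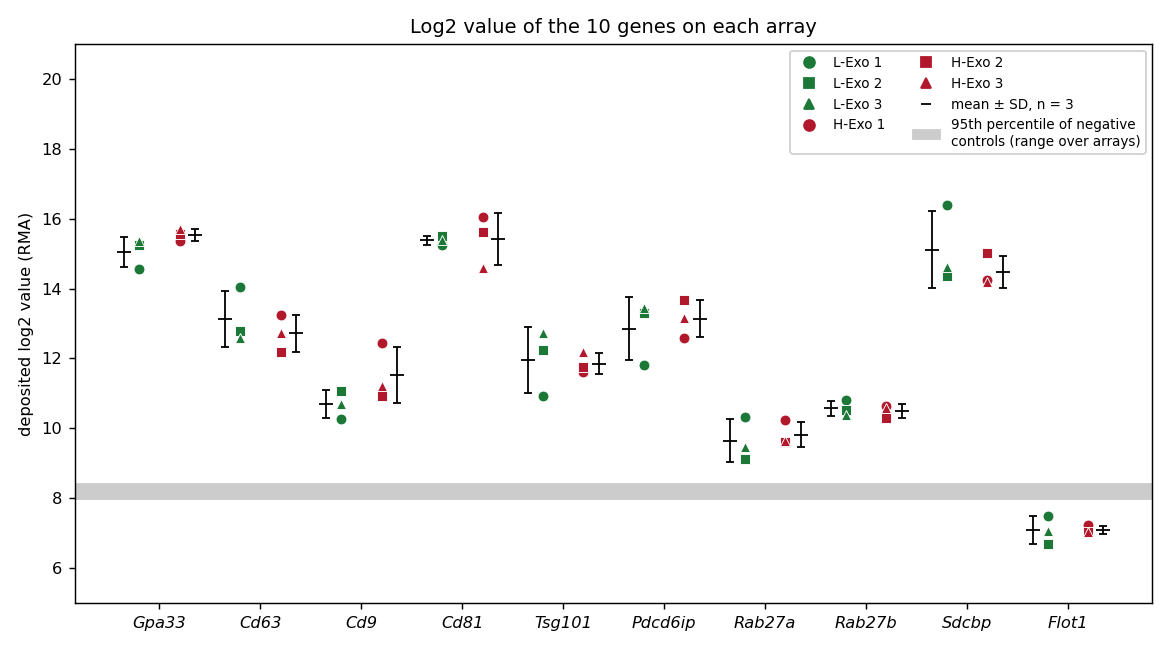
Deposited log2 value of each of the 10 genes on each of the 6 arrays, with L-Exo in green, H-Exo in red, the replicate number as the marker, and black bars for the mean and SD of 3 arrays; the grey band is the background limit over the arrays (7.97 to 8.41). Within each gene the groups overlap, and Flot1 alone lies below the band; levels of different genes come from different probes and are not comparable.

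The A33 antigen is an immunoglobulin superfamily protein of the intestinal epithelial surface. Gpa33 was at 14.56, 15.25 and 15.35 on L-Exo 1 to 3 and at 15.35, 15.57 and 15.69 on H-Exo 1 to 3. It was thus lowest on L-Exo 1, and the groups overlapped narrowly, as L-Exo 3 and H-Exo 1 had almost the same value. Means over 3 arrays were 15.05 ± 0.43 (SD) for L-Exo and 15.54 ± 0.17 (SD) for H-Exo. The difference of 0.49 (standard error 0.32, 95% interval -0.23 to 1.21, limma adjusted p = 0.988) did not pass the test. It was 0.24 without L-Exo 1. Gpa33 lay at least 6.37 above the negative control level on every array. Of the 20 markers of the intestinal epithelium, 9 lay within 0.5 of the highest value of at least 1 array, where arrays can hardly be ranked. Of the other 11, 8 were lowest on L-Exo 1, as were 25.6% of all probe sets and 32.3% of those above the negative controls on all 6 arrays. The 8 include Epcam (19.05 to 19.16) and Lypd8 (19.04 to 19.34), named for their values. Both lay not far below that margin and varied little, so their ranks carry little weight. The part of the low L-Exo 1 ranks in the Gpa33 value was not tested.

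The 250 bases before the annotated start of Gpa33 are shown beside those of Cd9 and Cd81, because Gpa33 is expressed in few tissues and the tetraspanin genes in many. The sequences are from RefSeq (build GRCm38.p6, in the direction of transcription), and CG dinucleotides are in capitals. Gpa33 lies at chr1:166129971-166130220 on the plus strand, Cd9 at chr6:125494761-125495010 on the minus strand and Cd81 at chr7:143052500-143052749 on the plus strand.
Gpa33: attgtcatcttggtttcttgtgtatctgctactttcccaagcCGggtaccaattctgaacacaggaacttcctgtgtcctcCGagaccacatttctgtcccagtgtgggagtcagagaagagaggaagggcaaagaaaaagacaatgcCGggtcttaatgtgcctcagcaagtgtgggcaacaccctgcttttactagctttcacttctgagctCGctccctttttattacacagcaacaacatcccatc
Cd9: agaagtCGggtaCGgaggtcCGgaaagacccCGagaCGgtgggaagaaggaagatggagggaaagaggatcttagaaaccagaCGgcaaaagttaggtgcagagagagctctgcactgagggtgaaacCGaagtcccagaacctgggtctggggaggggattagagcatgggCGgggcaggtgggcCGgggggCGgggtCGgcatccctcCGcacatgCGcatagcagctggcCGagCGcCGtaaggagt
Cd81: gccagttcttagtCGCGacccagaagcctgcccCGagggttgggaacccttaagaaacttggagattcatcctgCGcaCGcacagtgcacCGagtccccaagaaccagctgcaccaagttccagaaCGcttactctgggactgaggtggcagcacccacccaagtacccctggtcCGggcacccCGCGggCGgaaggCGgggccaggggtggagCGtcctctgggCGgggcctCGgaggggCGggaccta
The Gpa33 window holds 4 CG dinucleotides and the Cd9 and Cd81 windows 16 each. Of all 32851 windows of this length in the table, 44.4% hold 4 or fewer and 25.4% hold 16 or more, with a median of 6. Windows were found for 7 of the 10 genes. Pdcd6ip had 20, Tsg101 30 and Cd63 6, where the windows of Tsg101 and Cd63 start 6351 and 13114 bases inside the annotated gene. Rab27a has a window with 14 at its outer start and another with 5 at an inner start. These counts describe the sequence alone and were not related to the array values.

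The tetraspanins span the membrane several times and are widely used surface markers of exosomes. CD63 sits mainly in late endosomes and lysosomes, and CD9 and CD81 mainly at the plasma membrane. Cd63 was at 14.05, 12.79 and 12.57 on L-Exo 1 to 3 and at 13.24, 12.19 and 12.74 on H-Exo 1 to 3. L-Exo 1 was the highest array, and the other L-Exo arrays lay within the H-Exo range. The difference was -0.42 (standard error 0.45, 95% interval -1.43 to 0.59), and 0.04 without L-Exo 1.

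Cd9 had the largest difference of the 10 genes. Its values were 10.27, 11.08 and 10.70 on L-Exo 1 to 3 and 12.44, 10.92 and 11.20 on H-Exo 1 to 3. H-Exo 1 was high by itself, and H-Exo 2 lay below L-Exo 2, so the groups overlapped. The difference of 0.84 (standard error 0.43, 95% interval -0.14 to 1.81, limma unadjusted p = 0.0855, adjusted p = 0.988) corresponds to 1.78-fold, with an interval from 0.91-fold to 3.51-fold. It was 0.63 without L-Exo 1 and 0.17 without both replicate 1 arrays. Cd81 was at 15.25, 15.49 and 15.39 on L-Exo 1 to 3 and at 16.05, 15.61 and 14.60 on H-Exo 1 to 3. The H-Exo arrays lay on both sides of the L-Exo arrays, and the difference was 0.04 (standard error 0.39, 95% interval -0.84 to 0.93). The sign of the Cd81 value turned under 6 of 15 alternatives. These were quantile normalization, array weights, and leaving out L-Exo 1 (-0.0193), H-Exo 1 (-0.27), H-Exo 2 (-0.0516) or both replicate 1 arrays (-0.34).

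TSG101 is a subunit of ESCRT-I, and ALIX and syntenin-1 (the product of Sdcbp) form a route in which syntenin links syndecans to ALIX and the budding machinery. Tsg101 was at 10.91, 12.25 and 12.73 on L-Exo 1 to 3 and at 11.62, 11.76 and 12.18 on H-Exo 1 to 3. The L-Exo arrays enclosed the H-Exo arrays, and the difference was -0.11 (standard error 0.46, 95% interval -1.15 to 0.92). Without L-Exo 1 it was -0.64, and all H-Exo arrays then lay below the remaining L-Exo arrays. With that array left out, groups did not overlap in one direction or the other for 20.2% of all probe sets. Pdcd6ip was at 11.80, 13.31 and 13.44 on L-Exo 1 to 3 and at 12.59, 13.67 and 13.16 on H-Exo 1 to 3. It was lowest on both replicate 1 arrays. The difference was 0.29 (standard error 0.48, 95% interval -0.80 to 1.37), and -0.24 without L-Exo 1.

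Sdcbp was at 16.38, 14.35 and 14.61 on L-Exo 1 to 3 and at 14.24, 15.01 and 14.19 on H-Exo 1 to 3. L-Exo 1 was far above the other 5 arrays, which spanned 14.19 to 15.01. Its difference of -0.63 (standard error 0.53, 95% interval -1.81 to 0.55) had the widest interval of the 10 genes and was 0.00302 without L-Exo 1. The Sdcbp difference therefore rested on that array.

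RAB27A and RAB27B are small GTPases that, in human cells, move multivesicular bodies to the plasma membrane and hold them there. Rab27a was at 10.32, 9.13 and 9.47 on L-Exo 1 to 3 and at 10.22, 9.61 and 9.62 on H-Exo 1 to 3. Both replicate 1 arrays were high. The difference was 0.18 (standard error 0.38, 95% interval -0.67 to 1.03). Without L-Exo 1 it was 0.52, and all H-Exo arrays then lay above the remaining L-Exo arrays. Such a gap, in one direction or the other, was then seen for 20.2% of all probe sets. Rab27b was at 10.81, 10.53 and 10.39 on L-Exo 1 to 3 and at 10.65, 10.28 and 10.57 on H-Exo 1 to 3. It varied least, with all 6 arrays within 0.53 on the log2 scale. The difference of -0.08 (standard error 0.29) had a 95% interval from -0.73 to 0.57, or from 0.60-fold to 1.48-fold, and was 0.0366 without L-Exo 1.

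Flotillin-1 is a protein of lipid raft membranes that is often used as a marker of vesicle preparations. Flot1 was at 7.49, 6.69 and 7.05 on L-Exo 1 to 3 and at 7.23, 7.03 and 7.02 on H-Exo 1 to 3. Between 81.8% and 90.9% of the negative control probes lay below it on each array. Its difference of 0.01 (standard error 0.31), or 0.22 without L-Exo 1, was therefore one between values within the background, and no fold is given.

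**Figure D2:**
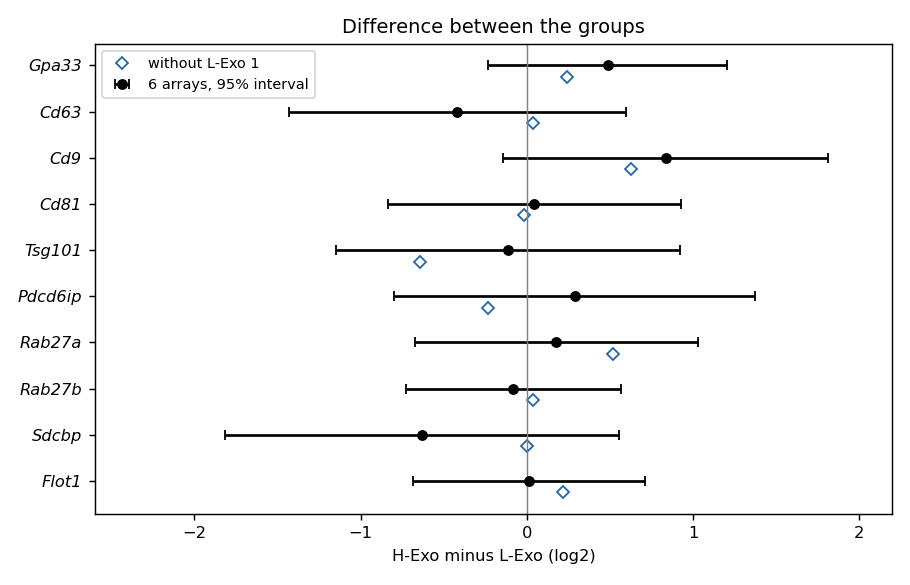
Difference H-Exo minus L-Exo on the log2 scale for the 10 genes, with the 95% interval of the limma fit on 6 arrays in black (not adjusted for the number of genes) and the difference without L-Exo 1 as an open diamond. Every interval includes 0, Cd9 lies farthest from it at 0.84, and the diamonds of Cd63, Cd81, Sdcbp and Rab27b lie within 0.04 of 0.

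The bound farthest from 0 was 1.81 in size for Cd9 and for Sdcbp and lay between 0.71 and 1.43 for the other 8 genes. These bounds limit how large a difference the intervals still hold.

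One array set much of the spread. L-Exo 1 was the highest of the 6 arrays for 5 genes (Cd63, Rab27a, Rab27b, Sdcbp and Flot1) and the lowest for 4 (Gpa33, Cd9, Tsg101 and Pdcd6ip), so that it lay at an end for 9 of the 10. It lay at an end for 53.2% of all probe sets and for 61.4% of the 4132 above the negative controls on all 6 arrays. No other array lay at an end for more than 3 of the 10. The median distance of the 10 genes on L-Exo 1 from their median over the 6 arrays was 0.76, against 0.41 on H-Exo 1 and 0.09 to 0.22 on the other 4. Of 12 measured markers of smooth muscle and stroma, 6 lay above the negative controls on all 6 arrays. Each of these 6 was higher on both replicate 1 arrays than on the other 4. The remaining markers of that list fell below the controls on at least 1 array. The part of this in the values of the 10 genes was not tested. Without L-Exo 1 the sign of the difference turned for Cd63, Cd81, Pdcd6ip, Rab27b and Sdcbp, and no gene of the 10 passed the test (lowest limma adjusted p = 0.996).

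**Figure D3:**
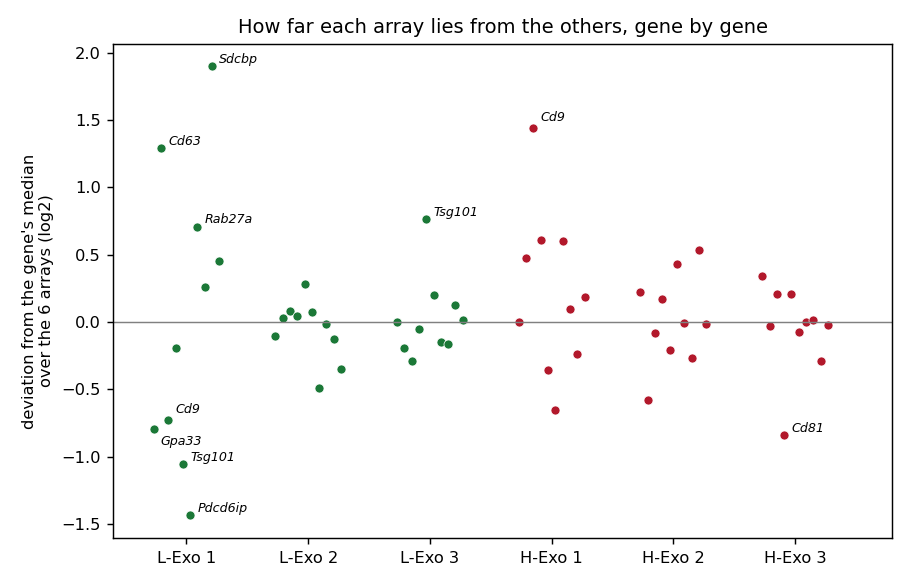
Deviation of each of the 10 genes from its own median over the 6 arrays (log2, y axis) on each array (x axis), 1 point per gene, with L-Exo in green and H-Exo in red; genes more than 0.7 from their median are named. Deviations on L-Exo 1 reach 1.90 for Sdcbp and -1.44 for Pdcd6ip, and the largest on any array other than L-Exo 1 and H-Exo 1 is -0.84, for Cd81 on H-Exo 3.

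The other genes of vesicle formation and release were read from 6 lists, of which 123 of 126 genes were measured. None passed limma's adjusted threshold. At an unadjusted p under 0.05, 5 were higher in H-Exo (4.07% of the 123, against 2.32% of all probe sets) and 3 lower (2.44%, against 1.74%). Groups did not overlap for 9 with H-Exo higher (7.32%, against 4.9% of all probe sets) and for 5 with H-Exo lower (4.07%, against 4.71%). The median difference of the 123 was -0.02, against -0.01 over all probe sets. Of the 123, 74 lay above the negative control level on all 6 arrays (60.2%, against 18.6% of all probe sets). From these lists, 28 genes were chosen by role for closer description.

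Among the ESCRT genes the median difference was -0.06, and it was positive for 14 of 30. Vps4a, an ATPase that takes the ESCRT-III filament apart, was at 7.12, 7.38 and 7.01 on L-Exo 1 to 3 and at 7.95, 8.02 and 7.64 on H-Exo 1 to 3. Every H-Exo array was higher (difference 0.69, standard error 0.29, limma unadjusted p = 0.0374, adjusted p = 0.988; exact permutation p = 0.1). The difference was 0.67 without L-Exo 1. Vps4a lay above the negative controls on 1 array, H-Exo 2, so the size is uncertain and no fold is given. Its paralog Vps4b, above the level on all 6 arrays, had a difference of -0.13 (standard error 0.35), or -0.0779 without L-Exo 1. Hgs, the ESCRT-0 subunit that first gathers ubiquitylated cargo, had one of 0.56 (standard error 0.34), or 0.30 without L-Exo 1. Its partner Stam2 turned from 0.15 to -0.28 without L-Exo 1, which was its lowest array. The ESCRT-I subunit Vps28, also lowest on L-Exo 1, was at -0.03 and without that array at -0.36. The ESCRT-III subunits Chmp4b and Chmp4c were at 0.44 and 0.23 (0.58 and 0.23 without L-Exo 1), and Pdcd6, which encodes the ALIX-binding protein ALG-2, at -0.16 (-0.15 without L-Exo 1). With all 6 arrays, the differences of these 7 genes were within 2 standard errors.

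For membrane fusion, 12 of 15 genes had a negative difference (median -0.31, against -0.01 over all probe sets), and none passed the adjusted test. This count was not repeated without L-Exo 1. Vamp7 and Vamp8 encode SNARE proteins of late endosomes. Vamp7 was at 12.31, 10.79 and 10.96 on L-Exo 1 to 3 and at 9.67, 10.36 and 10.67 on H-Exo 1 to 3. Every H-Exo array was lower, with a difference of -1.12 (standard error 0.46, limma unadjusted p = 0.0362, adjusted p = 0.988; exact permutation p = 0.1). It was -0.64 without L-Exo 1. Vamp8 was at 11.04, 9.54 and 9.73 on L-Exo 1 to 3 and at 9.19, 9.42 and 9.05 on H-Exo 1 to 3. Its groups did not overlap either, with a difference of -0.88 (standard error 0.41), or -0.41 without L-Exo 1. For both SNAREs L-Exo 1 was the highest array. Ykt6 and Snap23, 2 further SNARE genes, had differences of -0.16 and -0.20, both smaller than their standard errors, and of -0.16 and -0.00978 without L-Exo 1.

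Of the 22 RAB genes and effectors, 7 lay above the negative controls on all 6 arrays, where the share over all probe sets was 18.6%. Another 13 lay below them on all 6 arrays. These 13 included Sytl4 and Exph5, which encode effectors of RAB27A and RAB27B, and Unc13d, the gene of the RAB27 effector Munc13-4. Rab11a, a GTPase of recycling endosomes, had a difference of -0.49 (standard error 0.34), or -0.19 without L-Exo 1. Rab35 and Rab7 had differences of -0.03 and -0.0591 with all arrays, and of -0.38 and -0.28 without L-Exo 1.

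Of the syndecan, syntenin and lipid route, H-Exo was higher for 8 of 16 genes, none past the test. Sdc1 encodes syndecan-1, the main syndecan of epithelia and a cargo of the syntenin route. Sdc1 was at 12.41, 12.91 and 12.90 on L-Exo 1 to 3 and at 12.06, 12.46 and 11.30 on H-Exo 1 to 3. H-Exo 2 lay just above L-Exo 1, and the difference was -0.80 (standard error 0.37, limma unadjusted p = 0.0556). It was -0.96 without L-Exo 1. Sdc4, another syndecan gene, had one of 0.51 (standard error 0.31), or 0.33 without L-Exo 1. Hpse encodes heparanase, which trims the heparan sulfate of syndecans, and every H-Exo array of it was higher (0.53, standard error 0.29; 0.48 without L-Exo 1), but below the negative controls on all 6 arrays. Smpd3, the gene of the neutral sphingomyelinase that feeds ceramide-driven budding, was at 0.49 (standard error 0.41), or 0.15 without L-Exo 1. Arf6 was at -0.12 (-0.13 without L-Exo 1), and Pld2 and Flot2 lay below the negative controls on all 6 arrays.

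**Figure D4:**
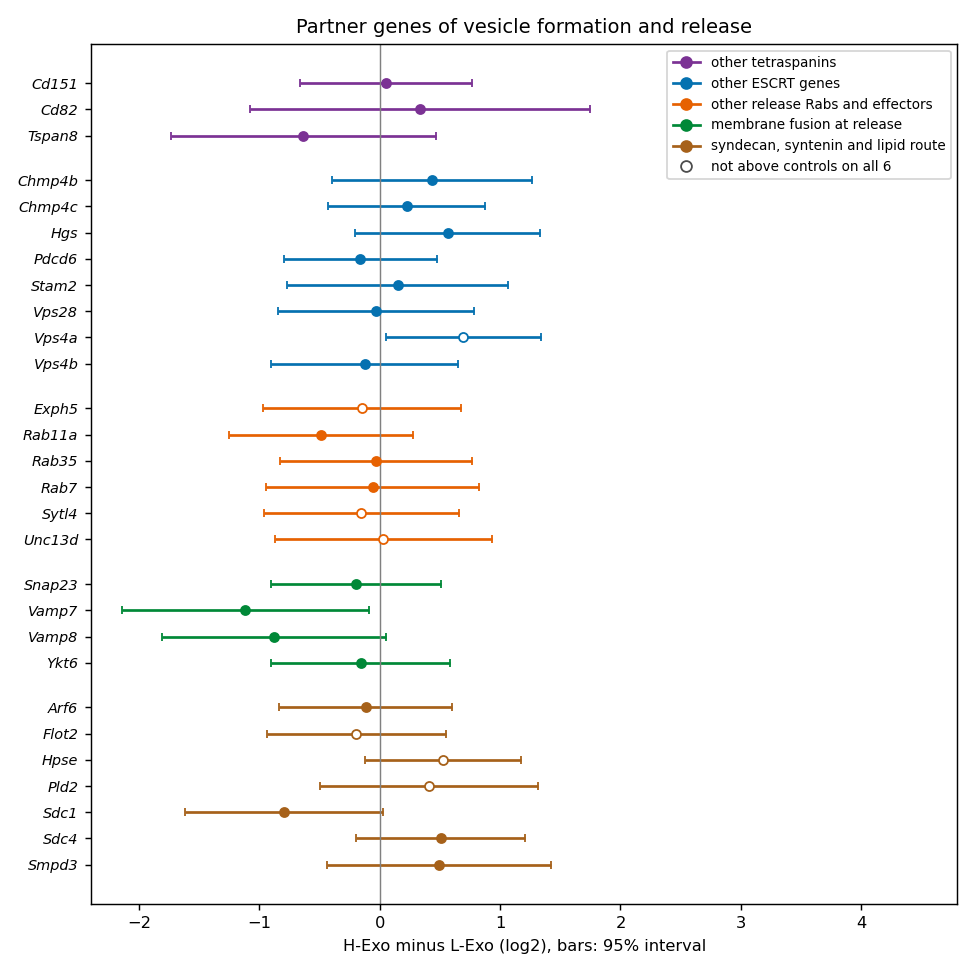
Difference H-Exo minus L-Exo on the log2 scale, with its 95% interval (not adjusted for the number of genes), for 28 partner genes grouped by role; open points lie above the negative controls on fewer than 6 arrays. The intervals of Vamp7 and Vps4a alone leave out 0, at -1.12 and 0.69, and neither passed the test adjusted over all probe sets.

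Of the other tetraspanins, 10 of 17 measured genes were higher in H-Exo. Tspan8, a tetraspanin of gut epithelium, had a difference of -0.63 (standard error 0.49), or -0.06 without L-Exo 1, where L-Exo 1 was the highest array. Cd82 had one of 0.33 (standard error 0.63), or -0.45 without L-Exo 1, and Cd151 one of 0.0541, or 0.11 without L-Exo 1. The 8 vesicle genes with an unadjusted p under 0.05 include Vps4a and Vamp7, and the other 6 are named because of their values. Cd37 and Cd53, tetraspanins of leukocytes, differed by 2.64 ± 0.75 and 1.60 ± 0.48 (standard error), both with every H-Exo array higher and both above the negative controls on 1 array. Of 13 measured lymphocyte markers, 12 had a positive difference (median 1.33). The median level of that list was 5.19 to 5.53 on the L-Exo arrays and 5.87 to 7.15 on the H-Exo arrays, 10 of the 13 lay below the negative controls on all 6 arrays, and their part in the Cd37 and Cd53 values was not tested. The vesicle cargo genes Mfge8, which encodes the phosphatidylserine-binding protein lactadherin, and Rdx, which encodes radixin, were at 1.84 (standard error 0.48) and 1.10 (standard error 0.35). Hsp90aa1, a heat shock protein gene, was at -1.13 (standard error 0.39) and Rab5b, a GTPase of early endosomes, at -0.96 (standard error 0.32). Of these 6, Mfge8 and Hsp90aa1 were above the negative controls on all 6 arrays. Without L-Exo 1, the highest array of Hsp90aa1, its difference was -0.73. The others were then at 2.14 (Cd37), 1.99 (Cd53), 1.70 (Mfge8), 0.81 (Rdx) and -0.76 (Rab5b). None of the 6 passed the test over all probe sets, with or without that array.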

How the data were processed

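RNA of tissue labelled liver was hybridised to 6 Affymetrix arrays, 3 per group. Values were deposited on the log2 scale; the submitters' processing notes name RMA and Transcriptome Analysis Console 4.0. RMA subtracts background, brings arrays to a common distribution and combines the probes of a probe set, so differences between bulk arrays are relative. For its settings and the genome build, nothing is given in the sources used here.

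The difference H-Exo minus L-Exo was fitted for 22206 probe sets with limma 3.58.1 in R 4.3.3 (lmFit, eBayes, two-sided, Benjamini-Hochberg over all probe sets, threshold 0.05), with no filter and no covariate. The table's 5222 negative control probes set the background level, and 1418 other controls were left out. Probe sets were named through the platform annotation: 1 symbol was found for 19572 of them and none for 2634. The fit was tested on data simulated with independent noise. No simulated array stood apart as L-Exo 1 does, so that test does not cover such an array.

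The genes named in the text are the 10, and 28 partner genes picked by role rather than by value, with any others marked as named for their values. The 10 genes and all lists were chosen with earlier results of these data known. The alternatives were trend and robust moderation, filters on dim probe sets, quantile normalization, median subtraction, weighting of arrays, a block for the replicate number, arrays left out, the mean of a gene's probe sets, the methods' t-test, and other background levels. The number of arrays limits the precision.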

Additional observations from a re-analysis of the deposited data

How the results depend on the processing

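None of the 10 genes passed limma's adjusted threshold under any alternative run, where the lowest adjusted p was 0.679 (array weights). Student's t-test called 0 before and 0 after Benjamini-Hochberg adjustment. Of 149 values of single genes under the alternatives, 128 kept their sign and 21 did not. The sign turned with quantile normalization for Cd81 (-0.0289) and Flot1 (-0.0336), with array weights for Cd81 (-0.0622) and Sdcbp (0.0712), and without both replicate 1 arrays for Cd81 (-0.34) and Sdcbp (0.12). With each array left out in turn, the difference ran from -0.70 to 0.0392 for Cd63, from -0.27 to 0.46 for Cd81, from -0.64 to 0.27 for Tsg101, from -0.24 to 0.58 for Pdcd6ip, from -0.0788 to 0.52 for Rab27a, from -0.17 to 0.0366 for Rab27b, from -1.01 to 0.00302 for Sdcbp and from -0.18 to 0.22 for Flot1. Gpa33 (0.24 to 0.64) and Cd9 (0.38 to 1.14) kept their sign throughout. The median difference of the 10 genes ran from -0.0389 to 0.16, the latter without H-Exo 3. The count of genes whose groups did not overlap, 0 on all arrays, was 1 to 2 with 1 array left out, where groups did not overlap for 17.7% to 22% of all probe sets, and 3 (Gpa33, Tsg101 and Rab27a) without both replicate 1 arrays, where they did not for 34%. The count above the negative controls on all 6 arrays was 9 at the 90th and 4 at the 99th percentile. The filter at the negative controls kept 5579 probe sets and removed Flot1. With the replicate number as a block (replicate block), 0 genes passed and the lowest adjusted p was 0.881. Deviations of same-numbered arrays correlated at 0.219, 0.0429 and 0.182, and those of different-numbered arrays at -0.216 to 0.0849. Whether the numbers mark pairs was not tested, and the main fit did not treat them as such. The causes of these changes were not tested.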
